A study of Mus musculus with 66 samples.

Results

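This report describes the stretches of the mouse autosomes on which a histone mark of silent chromatin and a mark of transcribed gene bodies were both listed. The members were selected on the islands themselves: on chromosomes 1 to 19, 200-bp windows covered by listed islands of H3K9me3 and of H3K36me3 in the same pool were kept where this held in at least 11 of the 22 pools, and adjoining windows were joined into runs of 1 kb or more. An island is a stretch of clustered reads that the SICER peak caller lists for one library. There were 19727 such regions, out of 62884 runs of 1 kb or more in which either mark was listed in at least 11 pools. The other 36029 runs held H3K9me3 and 7128 held H3K36me3 outside these regions. The members covered 53.8 Mb, or 2.18% of the autosomes.

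Adolescent male and female mice of the inbred strain DBA/2J were studied by chromatin immunoprecipitation sequencing (ChIP-seq) of their prefrontal cortex (PFC). Water pools came from mice given water by gavage, and ethanol pools from mice given 4 g/kg ethanol as a 25% w/v solution, on an intermittent schedule from postnatal day (PND) 29 to PND 42, with the cortex collected 24 h after dosing ended. Each sample was a pool of 3 mice of one sex and treatment, with 5 water and 6 ethanol pools per sex, and each pool gave an H3K9me3, an H3K36me3 and an input library, 66 in all. Bulk cortex mixes neurons and glia, so the 2 marks of a region may lie in different cells, and fewer cells carrying a mark cannot be told apart from less of the mark per cell.

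H3K9me3, which carries 3 methyl groups on lysine 9 of the histone H3 tail, is found in heterochromatin and silences repeated DNA. Its writer SETDB1 is brought to retrotransposons by KRAB zinc-finger proteins and their partner TRIM28. H3K36me3, the same modification on lysine 36, is laid down by SETD2, which travels with elongating RNA polymerase II, and is known for covering the bodies of transcribed genes. The pair is known to coexist over the 3′ ends of zinc-finger genes, where the chromatin remodeller ATRX binds.

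Most members held at least 1 of 3 repeated words, and the stretches below are shown because these words recur in the largest number of members. The 31-base word shared by the most members, in capitals, lay in 9930 of them (50.3%). The next word lay in 8248 members (41.8%) and the one after that in 2811 (14.2%), and 13588 members (68.9%) held at least 1 of the 3. Of the 8248, 2408 lacked the first word, and of the 2811, 1250 lacked both others. The words thus often lay in the same members, and they need not be parts of separate repeats. Each word is printed with 40 reference bases on either side, in the direction of the word, from 1 member of chromosome 1 and 1 of chromosome 10. All sequences are of the GRCm38 reference, which is of the strain C57BL/6J and not DBA/2J.
First word, chr1:4084180-4084290, minus strand: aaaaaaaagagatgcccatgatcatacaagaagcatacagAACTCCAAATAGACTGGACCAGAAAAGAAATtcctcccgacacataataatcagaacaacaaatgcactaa
First word, chr10:3581657-3581767, minus strand: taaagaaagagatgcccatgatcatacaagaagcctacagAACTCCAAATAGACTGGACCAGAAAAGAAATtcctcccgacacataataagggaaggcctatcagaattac
Next word, chr1:5192273-5192383, minus strand: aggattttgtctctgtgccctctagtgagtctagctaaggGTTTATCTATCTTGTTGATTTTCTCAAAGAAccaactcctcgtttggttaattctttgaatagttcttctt
Next word, chr10:10670198-10670308, minus strand: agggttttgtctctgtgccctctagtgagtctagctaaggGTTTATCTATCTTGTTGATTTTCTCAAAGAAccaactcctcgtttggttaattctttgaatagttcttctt
Last word, chr1:16449004-16449114, plus strand: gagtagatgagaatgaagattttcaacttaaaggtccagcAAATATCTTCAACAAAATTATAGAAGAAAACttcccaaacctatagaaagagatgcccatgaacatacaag
Last word, chr10:16436122-16436232, minus strand: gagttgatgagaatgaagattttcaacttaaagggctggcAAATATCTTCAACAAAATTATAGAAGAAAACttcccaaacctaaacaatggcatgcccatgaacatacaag

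A smaller set of members was far less repeated and led by the smaller of their 2 folds over input, and the central 200 bases of the leading members are shown for contrast. Each fold was a median over the pools with an island there. The stretches are on the plus strand of GRCm38, and capitals mark CG, the dinucleotide that carries DNA methylation.
In the pseudogene Vmn2r-ps57, chr7:41953401-41953600: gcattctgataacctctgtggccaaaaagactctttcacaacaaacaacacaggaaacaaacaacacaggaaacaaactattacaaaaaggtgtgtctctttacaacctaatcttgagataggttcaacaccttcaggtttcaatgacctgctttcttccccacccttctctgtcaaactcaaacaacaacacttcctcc
Near Zfp986, chr4:145821001-145821200: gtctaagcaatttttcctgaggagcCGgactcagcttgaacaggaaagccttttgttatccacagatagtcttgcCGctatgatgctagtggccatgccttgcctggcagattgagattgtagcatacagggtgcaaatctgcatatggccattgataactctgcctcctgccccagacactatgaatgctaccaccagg
Near Gm9125, chr3:94036801-94037000: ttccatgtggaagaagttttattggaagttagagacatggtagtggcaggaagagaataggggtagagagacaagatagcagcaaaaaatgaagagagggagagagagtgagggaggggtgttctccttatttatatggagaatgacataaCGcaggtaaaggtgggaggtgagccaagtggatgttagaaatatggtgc
In Gm9125, chr3:94050801-94051000: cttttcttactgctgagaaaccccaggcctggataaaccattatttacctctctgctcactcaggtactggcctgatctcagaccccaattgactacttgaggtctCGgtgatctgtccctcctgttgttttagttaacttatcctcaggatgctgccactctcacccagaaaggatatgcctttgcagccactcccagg

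The label of these regions was checked against the enrichment over input, since the island lists also hold islands that the authors' test did not find enriched. H3K9me3 was supported at most members and H3K36me3 at few. With an island q-value of at most 0.01 over at least 50% of the length in at least 11 pools, 17827 members (90.4%) held H3K9me3 and 2025 (10.3%) held H3K36me3. Both marks reached this in the same pools in 1447 members (7.34%), while 15949 reached it for H3K9me3 and not for H3K36me3, 147 for H3K36me3 and not for H3K9me3, and 1753 for neither. The regions are therefore called regions with listed islands of both marks, and the 1447 are called doubly enriched. These counts rest on the same islands as the selection and carry no test.

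The median fold over input was 1.46 for H3K9me3 (quartiles 1.36 and 1.55) and 1.16 for H3K36me3 (quartiles 1.09 and 1.26). H3K9me3 runs outside the members had a similar H3K9me3 fold of 1.49 and, where H3K36me3 islands were listed, an H3K36me3 fold of 1.22, above that of the members, and H3K36me3 runs outside them had a higher H3K36me3 fold of 1.27. A fold of 1.5 or higher was reached for H3K9me3 in 7239 members (36.7%), for H3K36me3 in 428 (2.17%) and for both in 371 (1.88%). A fold of 1 or lower, which means no more ChIP reads than the scaled input, was found for H3K36me3 in 734 members and for H3K9me3 in 347. The folds of the 2 marks rose together across the 19727 members (Pearson r = 0.49, Spearman rho = 0.53), which is a description, since both folds of a pool share one input library. The 1447 doubly enriched members had median folds of 1.62 and 1.38.

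**Figure D1:**
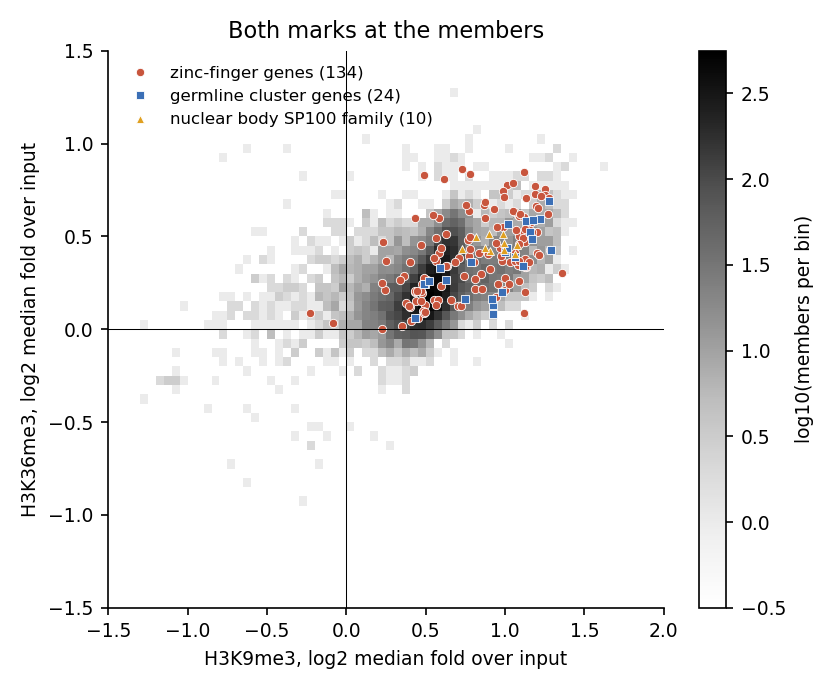
Each axis is the log2 of a member's median fold over input, H3K9me3 across and H3K36me3 upwards. Grey shows the number of members per bin on a log10 scale, and symbols mark members over zinc-finger (134), germline cluster (24) and SP100 family (10) genes. The median member lies at folds of 1.46 and 1.16, 1 member falls outside the axes, and 371 reached a fold of 1.5 for both marks.

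Members had a preferred size. The median length was 2800 bp, the commonest 3200 bp (2216 members, 11.2%), and 8729 members (44.2%) were between 2600 and 3400 bp. Only 91 were longer than 10 kb, and the longest was 89600 bp. At the edge of the selection, 994 members were exactly 1000 bp long, with median folds of 1.41 for H3K9me3 and 1.20 for H3K36me3, whereas 859 runs of 800 bp were left out. Of the windows, 23391 were shared in 11 pools and passed the threshold on pools, 24553 were shared in 10 pools and did not, and 35155 were shared in all 22.

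What the members had in common besides the islands was repeated sequence. The median member was soft-masked in the reference, that is, marked as repeat, over 99.75% of its length, against 33.5% of the autosomes. The 31-base words of the median member occurred 320.5 times in the genome (the median over words sampled along it), and 9.09% of them were unique. H3K9me3 runs outside the members stood at 16 copies and 25% unique words, with 96.9% soft-masked. H3K36me3 runs outside them stood at 1 copy and 71.4%, with 66.7% soft-masked, so the members differed most from the remaining H3K36me3. According to the study's methods, reads that mapped to several places were discarded for H3K9me3, and what was done for H3K36me3 is not given in the sources used here. The part of read mapping in the signal of these repeated regions was not tested.

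The GC content of the median member was 37.7%, against 41.9% for the autosomes, and the observed over expected CpG ratio was 0.173, against 0.194. Members lay away from genes: 19.6% of their length was in protein-coding gene bodies and 0.354% in exons, where the autosomes have 41.4% and 3.86%. H3K36me3 runs outside the members lay in gene bodies over 54.9% of their length and H3K9me3 runs outside them over 15.6%. Members over gene bodies (3884) had folds of 1.42 and 1.18, close to the 1.46 and 1.16 of those outside (15797). The density ranged from 4.61 members per Mb on chromosome 11 to 10.1 on chromosome 3. The doubly enriched members were most numerous on chromosome 13 (176), chromosome 4 (168), chromosome 1 (151) and chromosome 7 (140). Of them, 546 (37.7%) lay within 50 kb of another doubly enriched member. Of all members, which are more numerous, 14666 (74.3%) lay within 50 kb of another member.

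The first shared word, printed above, had 12656 autosomal copies, and 9957 of them (78.7%) were inside members. Of the copies of the next word 63.9% were in members, and of the last 55.9%. Averaged over the copies of the first word and the pools, listed islands covered the word itself in 90.5% for H3K9me3, 75.3% for H3K36me3 and 72.6% for both. At 8 kb before the word these shares were 12.2%, 5.71% and 4.49%. The shared stretch began abruptly, with the member's end a median of 653 bp before the word (quartiles 553 and 738), and ended a median of 2374 bp after it. At 3 kb after the word H3K9me3 still covered 61.4% and H3K36me3 26.0%, so H3K9me3 reached farther along the sequence than H3K36me3 did. The word helped to define no member, but the islands that chose the members also set this profile, so it carries no test.

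**Figure D2:**
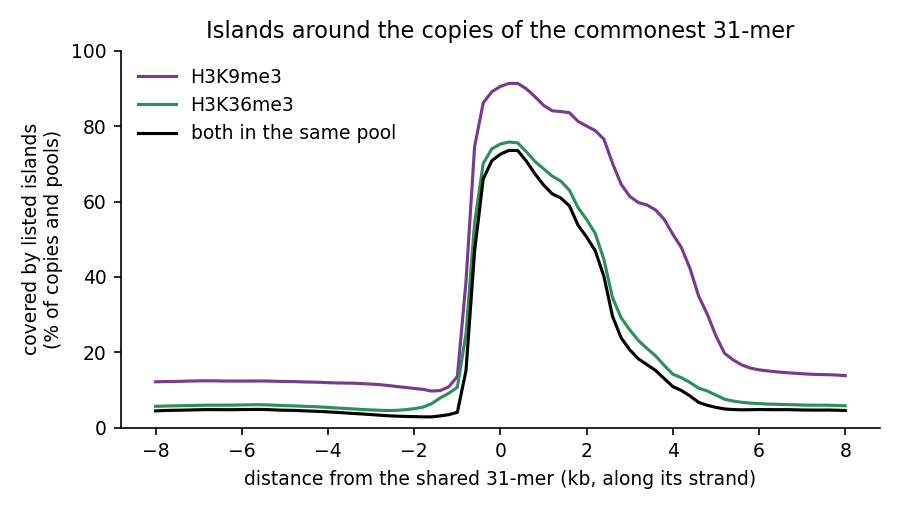
The x axis is the distance in kb from the commonest shared 31-base word, along its strand, and the y axis is the percentage of copies and pools covered by listed islands of H3K9me3, of H3K36me3 or of both in the same pool. Coverage of both was 72.6% at the word and 4.49% at 8 kb before it.

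Members were grouped by their median number of copies, with classes chosen when results of these data were known. Members of 1 copy numbered 2752, those of 2 to 10 copies 2841, of 11 to 100 copies 3231, of over 100 to 1000 copies 2013 and of over 1000 copies 8890. The doubly enriched were spread unevenly over these classes. They made up 14.5% of the members of 2 to 10 copies and 9.13% of those of over 1000 copies, but 4.65% of those of 1 copy, 2.63% of those of 11 to 100 copies and 0.447% of those of over 100 to 1000 copies. The H3K36me3 fold was 1.19 in members of over 1000 copies and 1.10 in members of over 100 to 1000, and the H3K9me3 fold 1.48 and 1.42. Of the 1447 doubly enriched members, 812 had over 1000 copies, 413 had 2 to 10 and 128 had 1 copy.

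The longest members formed a cluster on chromosome 8. Of the 6 longest, 5 lay close together there, among few and mostly unnamed genes, and 1 lay over the 5S ribosomal RNA genes of the same chromosome. The region chr8:20317201-20406800 over Gm15319 had folds of 1.43 and 1.09, and chr8:20571801-20661000 over Gm21119 had 1.44 and 1.25. The other 3 of the cluster, chr8:20493201-20549600, chr8:20084801-20128600 and chr8:19698401-19740000, had H3K9me3 folds of 1.4 to 1.61 and H3K36me3 folds of 1.15 to 1.23. All 5 were listed for both marks in 22 pools, and both marks passed the q-value in 21 or 22. Their input reads numbered 68.9 to 107.8 per kb, against 25.5 at the median member, and the part of read depth in these q-values was not tested.

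The remaining long member, chr8:123537401-123624200, was unlike them. It spans Rn5s and the n-R5s genes, which encode 5S ribosomal RNA, a component of the large ribosomal subunit, inside the gene model Gm20388. Its H3K9me3 fold was 0.746 (0.589 to 1.14 over 22 pools), below the input in the median pool, and its H3K36me3 fold 1.13 (0.913 to 1.90). H3K36me3 passed the q-value in 16 pools and H3K9me3 in 1. The GC content was 63.1%, the highest of the named members.

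The members that led by the smaller of the 2 folds were low-copy, and most lay outside protein-coding genes. The region chr7:41952801-41954200 in Vmn2r-ps57, a vomeronasal receptor pseudogene, had an H3K9me3 fold of 2.30 (1.47 to 3.19, 20 pools) and an H3K36me3 fold of 2.02 (1.39 to 3.47, 13 pools). Its 31-base words were 85.7% unique. The region chr4:145820001-145822200, 46.6 kb from the start of Zfp986, a zinc-finger gene, had 2.47 (1.76 to 3.99, 22 pools) and 2.00 (1.24 to 2.42, 20 pools). On chromosome 3, chr3:94036401-94037400 had 2.07 and 1.95 and chr3:94050201-94051600, inside Gm9125, had 2.53 and 1.93. These lie 17.5 and 3.29 kb from the same start site and are not independent. The last of the 6 were chr12:23262601-23264800 in Gm20472, with 2.39 and 1.89, and chr7:38991601-38992800, which overlaps no gene, with 2.42 and 1.88. Because a pool without an island gives no fold, the H3K36me3 medians of the 6 rest on 12 to 21 pools.

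Gene families were described next, by lists chosen with earlier results known and by symbol, and each is set beside the 7.34% of all members that were doubly enriched. Zinc-finger genes, whose KRAB members direct H3K9me3 to repeats, held 134 members in 61 of 425 genes. Their folds were 1.8 for H3K9me3 and 1.31 for H3K36me3, and 44 of the 134 (32.8%) were doubly enriched, in 23 genes. These had folds of 2.15 and 1.51. The 134 had a median of 4 copies. The loci were clustered on chromosome 4, where Zfp991 held 6 doubly enriched members, Zfp600 held 5, Zfp993 held 4, and Zfp985, Zfp992 and Zfp981 held 3 each. Of the 134, 33 touched an exon, 7 the last exon and 10 the start site, so most lay in introns. The highest H3K36me3 fold of the list was 1.82, at chr13:67353201-67355400 in Zfp953, where H3K9me3 was 1.65 and both marks passed the q-value in 18 pools. How reads were assigned among near-identical zinc-finger genes was not tested.

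The nuclear body family on chromosome 1 stood high for both marks. Sp100, Sp110 and Sp140 encode interferon-induced proteins of nuclear bodies, and all 3 genes held members, 10 in all, of which 7 (70%) were doubly enriched. Their folds were 1.93 and 1.36, with a median of 6 copies. The longest, chr1:85602601-85614800 in Sp140, had folds of 1.99 and 1.35 and both marks at the q-value in 17 of 22 pools. The unnamed gene C130026I21Rik, also on chromosome 1, held 24 doubly enriched members, more than any other gene, with folds of 2.07 and 1.33.

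Germline cluster genes, which are duplicated families expressed in oocytes, embryos or testis, held 24 members in 10 genes of 52, and 12 (50%) were doubly enriched. Their folds were 1.99 and 1.27. Obox1, an oocyte homeobox gene, held 6 doubly enriched members, the longest being chr7:15434601-15442600 with folds of 2.44 and 1.34. Tdpoz3 and Tdpoz4 were covered from the start site to the last exon by chr3:93823201-93826400 and chr3:93794001-93797000, with folds of 2.02 and 1.35, and 2.00 and 1.33. Speer4c, Speer4d, Oog4, Pramef6 and Usp17le were the other genes outside the Obox family.

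Receptor and adhesion families each held fewer members than zinc-finger genes. Vomeronasal receptors, which detect pheromones, held 75 members in 50 of 327 genes with folds of 1.68 and 1.20, and none was doubly enriched. Olfactory receptors held 29 members in 22 of 1128 genes, and 3 (10.3%) were doubly enriched, in introns of Olfr362, Olfr54 and Olfr165. Clustered protocadherins, adhesion proteins of neurons chosen one promoter at a time, held 7 members, of which 1 (14.3%) was doubly enriched. These shares rest on few members. Defb39 was the only defensin gene with a member, chr8:19056401-19059600, with folds of 1.59 and 1.25.

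Imprinted genes, which are expressed from one parental copy, held 8 members in 6 of 36 genes, and none was doubly enriched. Their H3K9me3 fold of 1.20 was below and their H3K36me3 fold of 1.25 above the median of all members. In Kcnk9 and Trappc9 on chromosome 15, the 4 members had H3K36me3 folds of 1.18 to 1.39 and H3K9me3 folds of 0.748 to 1.05. In Kcnq1, over the long antisense transcript Kcnq1ot1, chr7:143222201-143225200 had folds of 1.34 and 1.09. Of the writers, erasers and readers of both marks, 1 of 31 held a member, which was Kdm4d, a demethylase of H3K9.

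Neuron genes held 46 members in 11 of 25 genes, with a median of 4009 copies and folds of 1.45 and 1.18. Of these, 3 (6.52%) were doubly enriched, 2 in introns of Dlgap1, a postsynaptic scaffold gene, and 1 in Cntnap2, which encodes a neuronal adhesion protein. None of the 46 touched an exon. None of the 18 glia and myelin genes, which include Mbp, Mog and Mobp, held a member. These counts take no account of gene length, and Mog and Mobp span 12656 and 31778 bp. As a check of the tissue, H3K36me3 islands at the q-value were sought over the bodies of marker genes. They lay over Rbfox3 (a neuron marker) and Cx3cr1 (a microglia marker) in 11 libraries each, and over Csf1r, the other microglia marker, in 0. The other 6 neuron markers had them in 0 to 7 libraries, the 3 astrocyte markers in 0 to 4, and the 3 oligodendrocyte markers in 0 to 2. The 5 genes of other tissues had them in 0. These islands covered a median of 0.0948% of the Rbfox3 body and 0.475% of the Cx3cr1 body, so the check says little about the tissue.

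Pools differed widely in how many members they showed. Both marks were listed over at least 50% of the length of 9563 members in female water 4 and of 18692 in male ethanol 2, with a median of 15830.5. By group, the number was 15215 ± 1438 (SD, n = 5) in male water, 16034 ± 2711 (n = 6) in male ethanol, 15265 ± 3375 (n = 5) in female water and 15775 ± 1499 (n = 6) in female ethanol, and the groups overlapped. Both marks at the q-value were found in 884 members of male ethanol 6 and 9080 of male ethanol 1. The weakest H3K9me3 library was female water 2, with a fold of 1.11 and 4194 members at the q-value, and the weakest H3K36me3 library was male ethanol 6, with a fold of 1.02.

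Members took 35.9 to 54.2% of the listed H3K9me3 reads of a library and 44.5 to 63.9% of the listed H3K36me3 reads. Listed reads numbered 4.79 to 13.2 M for H3K9me3 and 1.60 to 4.57 M for H3K36me3, and library totals, with the reads outside the islands, were not used here. The median H3K36me3 fold over members was 1.14 ± 0.0984 in male water, 1.25 ± 0.208 in male ethanol, 1.22 ± 0.116 in female water and 1.16 ± 0.0544 in female ethanol. The libraries of male ethanol 1 and 4 were above all other H3K36me3 libraries. In all 231 pairs of libraries per mark the counts differed beyond sampling noise, with a chi-square per degree of freedom of at least 2.02 for H3K9me3 and 6.50 for H3K36me3.

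**Figure D3:**
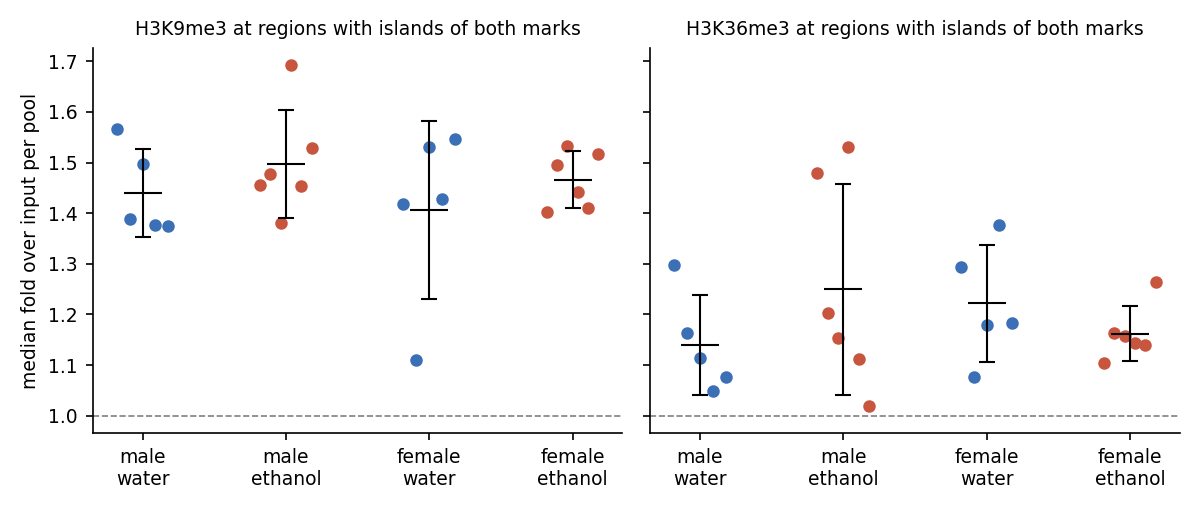
Each point is one pool, and the y axis is its median fold over input across the 19727 members, for H3K9me3 on the left and H3K36me3 on the right. Bars give the group mean and SD (n = 5 water and 6 ethanol pools per sex) and the dashed line marks no enrichment. H3K9me3 folds lay between 1.11 and 1.69 and H3K36me3 folds between 1.02 and 1.53, and the groups overlapped.

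Whether ethanol changed either mark was tested within each sex by edgeR's quasi-likelihood test on ChIP reads, fitted over all runs of the mark that had an island in every library of the sex. The need for an island in every library used no treatment label, but it left untested the regions without an island in 1 or more libraries. The choice of members was not symmetric either, since 11 pools can be reached by ethanol pools alone but not by water pools alone. For H3K9me3 in males 18257 members could be tested, and for H3K36me3 6795 (34.4%). In females these were 16880 and 7238 (36.7%). No member reached an adjusted p of 0.05 in any of the 6 comparisons, 2 marks in each sex and 2 tests of treatment by sex, and neither did any other region (0.0% of 110791 tests). DESeq2 called no member in the 4 within-sex comparisons and in the H3K9me3 test of treatment by sex, and 2 members in the H3K36me3 test of treatment by sex. Over all regions its adjusted calls were 4 of 35579 (male H3K9me3), 1 of 7029 (male H3K36me3), 1 of 29033 (female H3K9me3) and 1 of 7636 (female H3K36me3). In the tests of treatment by sex they were 3 of 26160 (H3K9me3) and 2 of 5352 (H3K36me3).

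Calls at the study's unadjusted threshold of p of 0.05 or lower are given beside those of all regions tested. H3K9me3 in males gave 434 members (2.38%), against 2.68% of all regions, with 226 higher in ethanol (1.24%, against 1.45%) and 208 lower (1.14%, against 1.23%). In females 491 members (2.91%) were called, against 3.31%, of which 224 were higher (1.33%, against 1.7%) and 267 lower (1.58%, against 1.61%). Among regions outside the members the shares were 3.00% in males and 3.87% in females. Without the scaling by trimmed mean of M-values (TMM), the male calls became 317 higher of 454. Effects were small, with 95% of the male log2 changes between -0.22 and 0.21.

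For H3K36me3 in males 335 members (4.93%) were called, against 5.46% of all regions, with 179 higher (2.63%, against 2.56%) and 156 lower (2.30%, against 2.9%). Members made up 6795 of the 7030 regions tested, so the share of all regions largely repeats their own, and of the 235 regions outside the members 49 (20.9%) were called, 48 of them lower. Without TMM scaling 14 (5.96%) of these were called, 12 of them lower, and with an island required in 8 libraries 23 of 2811 (0.818%). Females had 240 (3.32%, against 3.4%), with 123 higher (1.70%, against 1.74%) and 117 lower (1.62%, against 1.66%), and outside the members 20 of 398 (5.03%). These totals hid a split by copy number in males. Of the 1438 tested members of up to 100 copies, 111 (7.72%) were called, 13 higher and 98 lower in ethanol. Of the 4772 of over 1000 copies, 209 (4.38%) were called, 161 higher and 48 lower. Of the 585 between these, 15 (2.56%) were called, 5 higher and 10 lower. Leaving out 1 pool at a time gave 8 to 20 higher and 75 to 131 lower in the first set, and 123 to 185 higher and 40 to 64 lower in the second. In females the split ran the other way, with 48 higher and 11 lower among 1474 tested members of up to 100 copies, 13 higher and 6 lower among 592 of over 100 to 1000, and 62 higher and 100 lower among 5172 of over 1000. Leaving out 1 pool at a time gave 40 to 57 higher and 4 to 19 lower in the first set, and 46 to 71 higher and 71 to 129 lower in the second. Without female water 4 the counts were 40 and 19, and 62 and 71. Without TMM scaling the female calls were 35 higher and 7 lower, and 43 higher and 76 lower.

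The median log2 changes behind this split were small. In males they were -0.06 for members of up to 100 copies and 0.03 for members of over 1000, and in females 0.06 and -0.02. Without TMM scaling the medians of both male sets were above 0, at 0.09 and 0.19, with 47 higher and 15 lower in the first set and 449 and 3 in the second, and over all members 521 of 539 calls were higher. Leaving out the scaling factors shifted the median of all regions by 0.15 in males, and the direction in each male set is relative to that centre. With DESeq2's size factors the male counts were 13 higher and 98 lower, and 166 higher and 47 lower. With an island required in 8 libraries 145 of 216 male calls were higher, and over input reads 161 of 399. The H3K36me3 enrichment of gene-body runs was 1.51 ± 0.284 in male water and 1.36 ± 0.271 in male ethanol libraries, and 1.53 ± 0.158 and 1.39 ± 0.0869 in female water and ethanol. The part of such library differences in the split was not tested.

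**Figure D4:**
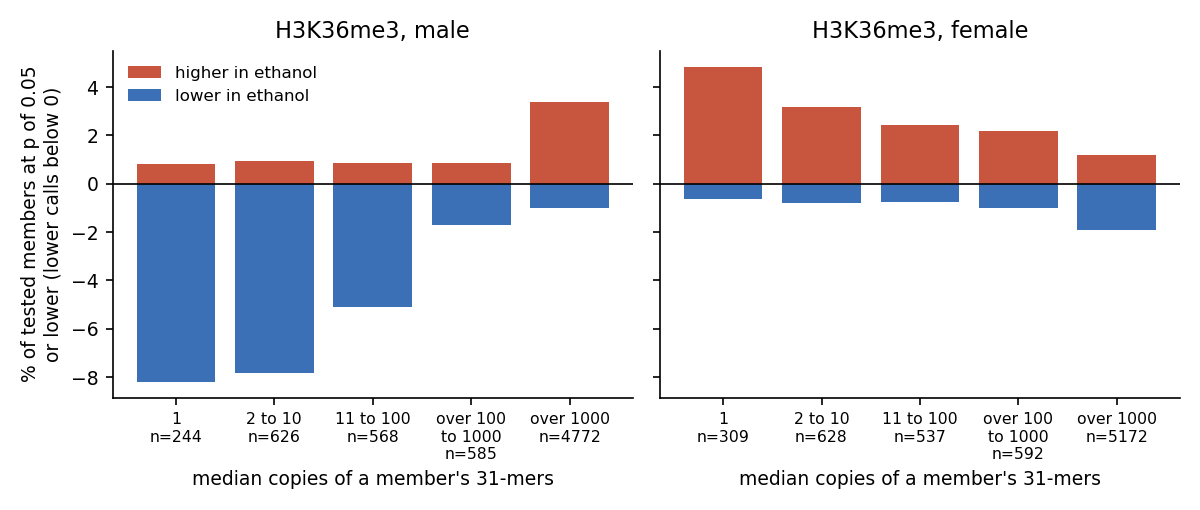
The x axis groups the tested members by the median number of genomic copies of their 31-base words, with n tested below each, and bars give the percentage of tested members at an unadjusted p of 0.05 or lower in edgeR, higher in ethanol above 0 and lower in ethanol below it. Male members of up to 100 copies were mostly lower (98 of 111) and those of over 1000 mostly higher (161 of 209), a male direction that flips to higher in the first set without TMM scaling.

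Among zinc-finger members, 6 of the 52 tested for H3K36me3 in males were called, against 5.46% of all regions, and all 6 were lower in ethanol, against 2.9%. DESeq2's size factors also gave 6 calls, all lower, and without any scaling factor 1 was called and it was higher, so the direction rests on a scaling being applied. With islands limited to a q-value of 0.01 none of 28 was, with an island required in 8 libraries 1 of 119 was, and without male water 5 and without male ethanol 4 the calls were 2 and 3. The 6 lay in Zfp980 (log2 change -0.51), Zfp987 (-0.62), Zfp600 (-0.45), Zfp992 (-0.29), Zfp369 (-0.48) and Zfp953 (-0.56). In females 3 of 61 were called, against 3.4% of all regions, of which Zfp385b (0.44) and Zfp981 (0.24) were higher and Zfp942 (-0.36) lower. These few calls moved with the settings, to 1 without female ethanol 2, 5 without female water 3, 1 (lower) without TMM scaling and 4 (3 of them lower) over input reads. H3K9me3 gave 0 of 121 zinc-finger calls in males, against 2.68%, and 4 of 115 in females, against 3.31%. Leaving out 1 pool at a time gave 0 to 6 in males, with 6 without male ethanol 4 and 4 without male water 5, and 3 to 8 in females, with 8 without female water 4 and 7 without female water 3. Over input reads the calls were 4 and 6, and in females 2 with an island required in 8 libraries and 0 at the q-value. The adjusted p of each of these members was at least 0.857 by edgeR. In the neuron list, H3K9me3 gave 2 calls of 41 in males, against 2.68% of all regions, in Gria4 (-0.30) and Dlgap1 (-0.25). Females had 2 of 32, against 3.31%, in Nrxn3 (0.40) and Dlgap1 (0.26), the latter being the same member, chr17:70052801-70056400. H3K36me3 gave 0 of 17 in males, against 5.46% of all regions, and 2 of 17 in females, against 3.4%, both in Cntnap2 (0.41 and 0.39). No neuron member passed an adjusted p of 0.05 by edgeR.

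The members of smallest p for H3K9me3 in males were both lower in ethanol. At chr15:68639001-68643000, an intergenic repeat of 144 copies, the water pools had 44.5, 41.2, 41.5, 41.1 and 43.2 CPM (counts per M reads in the tested regions, TMM-scaled) and the ethanol pools 28.6 to 36.8 with a median of 33.2. The groups did not overlap, and the log2 change was -0.36 ± 0.0664 (SE, adjusted p = 0.9999 by edgeR and 0.0549 by DESeq2). Divided by input reads the change was -0.12, and with islands limited to a q-value of 0.01 it was -0.61, and neither was called. At chr5:64943401-64946000, 9.84 kb from the start of Tlr1, a receptor for bacterial lipopeptides, water pools had 27.5, 25.6, 26.1, 30.8 and 27.1 CPM and ethanol pools 19.2 to 22.8 with a median of 20.2. These did not overlap either (log2 change -0.41 ± 0.0775, edgeR adjusted p = 0.9999). Divided by input reads the change was -0.25, and at the q-value it was -0.70 and no longer called.

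In females, H3K9me3 at chr5:6399001-6402000, a repeat of 5660 copies 649.7 kb from the nearest protein-coding start site, was lower in every ethanol pool. Water pools had 40.5, 41.3, 42.3, 40.5 and 41.4 CPM and ethanol pools 32.5 to 36.7 with a median of 33.1 (log2 change -0.29 ± 0.0534, edgeR adjusted p = 0.9999). Divided by input reads, this change turned to 0.17, so its direction depends on the input. At chr6:95214601-95215800 the water pools had 10.8, 13.3, 12, 11.5 and 15.4 CPM and the ethanol pools 15.1 to 24.1 with a median of 20.6. Only female water 5 and female ethanol 1 overlapped (log2 change 0.67 ± 0.154, edgeR adjusted p = 0.9999). Divided by input reads, the change was 0.13 and no longer called.

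For H3K36me3 in males the smallest p was at chr1:152243201-152246400, a repeat of 6409 copies. Its water pools had 39.7, 63.3, 58.8, 65.3 and 59.2 CPM and its ethanol pools 79.1 to 92.3 with a median of 85.5, with no overlap (log2 change 0.55 ± 0.127, edgeR adjusted p = 0.816). Divided by input reads the change was -0.038. At chr14:118145001-118146400, in an intron of Gpr180, a G protein-coupled receptor gene, the water pools had 166, 124, 141, 152 and 167 CPM and the ethanol pools 60.4 to 120.4 with a median of 80.2 (log2 change -0.79 ± 0.181, edgeR adjusted p = 0.816). The groups did not overlap here either. This member had an H3K9me3 fold of 0.417 and 134 input reads per kb, against 25.5 at the median member, and H3K36me3 passed the q-value in 6 pools and H3K9me3 in 0.

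In females the leading H3K36me3 members were low-copy. At chr12:115606401-115608800 the water pools had 50.6, 62.4, 54.9, 36.7 and 63.2 CPM and the ethanol pools 67.5 to 93.5 with a median of 88.0 (log2 change 0.65 ± 0.143, edgeR adjusted p = 0.952). At chr4:145860401-145864400, 4.39 kb from the start of Zfp986, water pools had 68.5, 72.0, 79.7, 61.5 and 77.4 CPM and ethanol pools 89.0 to 107.5 with a median of 99.6 (log2 change 0.46 ± 0.101, edgeR adjusted p = 0.952). Neither pair of groups overlapped. Divided by input reads, the first change was 0.27 and the latter -0.26, and with islands limited to a q-value of 0.01 it was -0.47.

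Whether the response differed between the sexes was tested by the interaction of treatment and sex. Higher and lower here refer to the log2 change on ethanol in females relative to that in males, and not to the level of the mark. For H3K9me3, 16380 members were tested and 527 (3.22%) were called, against 3.29% of all regions. Of these, 251 were higher (1.53%, against 1.61%) and 276 lower (1.68%, against 1.68%). For H3K36me3, 5204 were tested and 289 (5.55%) were called, against 5.77%, with 125 higher (2.4%, against 2.69%) and 164 lower (3.15%, against 3.08%). The H3K36me3 calls of this difference, female minus male, were split by copies too, with 64 higher and 5 lower of 982 at up to 100 copies and 47 higher and 155 lower of 3866 at over 1000. Outside the members 20 of 148 (13.5%) were called, and without TMM scaling 6. Without TMM scaling the 2 sets of members became 11 and 12, and 3 and 369, 14 of 404 H3K36me3 calls and 189 of 547 H3K9me3 calls were higher over all members, and the median of all regions for H3K36me3 moved by -0.17.

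The H3K36me3 member of smallest interaction p lay in an intron of Sp100, at chr1:85652801-85654000. Male water pools had 43.9, 58.8, 67, 51 and 65.2 CPM and male ethanol pools 26.8 to 52.8 with a median of 36.3. Female water pools had 53.9, 38.1, 30.0, 37.7 and 34.2 CPM and female ethanol pools 35.5 to 78.2 with a median of 60.7. Ethanol pools were mostly lower in males and mostly higher in females, with overlap in each sex. The log2 change was -0.57 in males and 0.65 in females, and the interaction 1.23 ± 0.274 (SE, edgeR adjusted p = 0.339). DESeq2 gave an adjusted p of 0.0457 for H3K36me3. The H3K9me3 interaction at this member had the same sign, at 0.58 (edgeR unadjusted p = 0.0423), and did not pass after adjustment. The region had folds of 1.66 and 1.35 and a median of 6.5 copies, and how reads were divided between the copies was not tested.

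**Figure D5:**
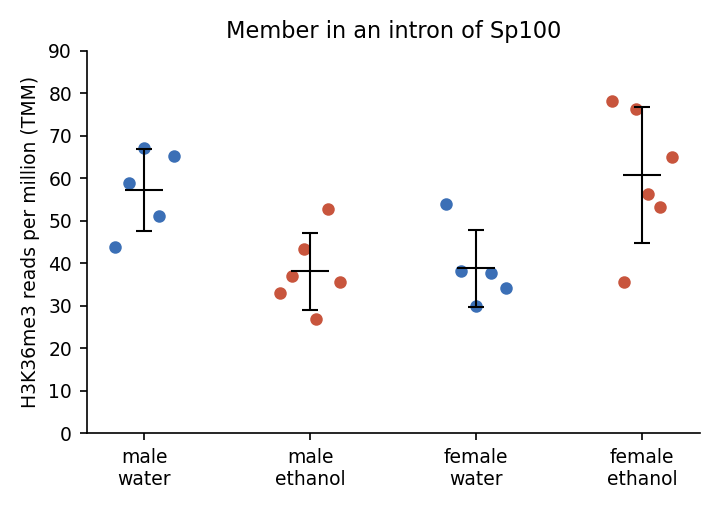
Each point is one pool, and the y axis gives TMM-scaled H3K36me3 CPM over the member in an intron of Sp100. Bars give the group mean and SD. Male means were 57.2 with water and 38.1 with ethanol, and female means 38.8 and 60.7.

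DESeq2 called 1 other member in this interaction, chr1:26686001-26689000 over the start of 4931408C20Rik, and the 2 made up 0.0374% of the regions tested. Its log2 change was -0.50 in males and 0.21 in females (edgeR interaction 0.71, adjusted p = 0.339, DESeq2 adjusted p = 0.0212). It is 93.3% unique in sequence and had 120.6 input reads per kb. For H3K9me3 the member of smallest interaction p was chr11:48531801-48535000, a repeat of 4950 copies. Male water pools had 29.8, 29.1, 32.5, 35.1 and 32.4 CPM and male ethanol pools 33.9 to 39.6 with a median of 37.0. Female water pools had 40.1, 41.4, 38.6, 39.8 and 38.8 CPM and female ethanol pools 29.6 to 39.0 with a median of 32.9. The interaction was -0.46 ± 0.0938 (edgeR adjusted p = 0.867), and the groups of each sex overlapped.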

How the data were processed

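The 44 deposited lists, 1 per precipitated library, gave counts of ChIP and input reads per SICER island, which the authors had not normalized, together with the authors' fold ratios over input and their p-values and q-values. Island gaps were 400 bp (H3K9me3) and 600 bp (H3K36me3). The submitters' processing notes name FastQC, cutadapt, Bowtie2 2.4.1, SICER and GRCm38. Lists were not filtered on q. Members and gene lists were chosen with earlier results of these data known. Reads of an island were apportioned to regions by overlapped length, rounded, filtered on low counts, TMM-scaled and tested with edgeR 4.0.16 (quasi-likelihood, Benjamini-Hochberg over all regions of a mark) in R 4.3.3, with DESeq2 1.42.0 as an alternative, on regions with an island in every library. The code was tested on simulated data. Copies are counts of 31-base words in GRCm38, and genes are GENCODE vM21. Named members were the 6 longest, the 6 with the highest smaller fold, the 2 of smallest p per mark and sex (1 per interaction), and the longest over each gene list. The pools were of different mice, 3 each. Whether they shared litters or days is not stated, and p-values measure the spread between these pools. Tables and figures were made with Python 3.11.15 (pandas 2.3.3, numpy 2.4.6, numba 0.67.0, matplotlib 3.10.9).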

Additional observations from a re-analysis of the deposited data

Results flagged for a closer look

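In 48 groups of values checked for a pool far from the rest, 3 stood apart, where chance gives about 1 in 20 (2.4). The median H3K36me3 fold over members was 1.26 in female ethanol 6, above the other female ethanol pools. H3K36me3 at chr12:115606401-115608800 was 67.5 CPM in female ethanol 2, below the other female ethanol pools, and at chr1:152243201-152246400 it was 39.7 CPM in male water 1, below the other male water pools.

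The response to ethanol differed between the sexes at an unadjusted p, and not after edgeR adjustment, at both members chosen for the smallest interaction p. The log2 interaction was -0.46 for H3K9me3 at chr11:48531801-48535000 and 1.23 for H3K36me3 at chr1:85652801-85654000 in Sp100.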

How the results depend on the processing

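With islands limited to a q-value of 0.01, 1558 regions with both marks remained in place of 19727, and calls at the unadjusted p fell to 88 (male H3K9me3, 0.536% of members tested against 0.468% of all regions), 5 (female H3K9me3, 3 of them higher, 0.0332% against 0.0727%), and 0 for H3K36me3 in males and in females. Over input reads the calls were 862 for male H3K9me3 (4.72% against 5.26%) and 384 for female H3K36me3 (5.31% against 5.30%). With an island required in 8 of 11 libraries, H3K36me3 gave 216 in males (1.35% against 1.27%) and 146 in females (0.91% against 0.783%), and without TMM factors 539 in males (7.93% against 7.87%). With the replicate number as a block, male H3K9me3 gave 285 (1.56% against 2.63%). Same-numbered pools correlated at -0.127 to 0.0596, which gave no sign that the numbers pair the pools. Such correlations over all tested regions cannot show whether pools shared litters or days. DESeq2 called 2 members in the H3K36me3 interaction after adjustment. Leaving out 1 pool gave 18844 to 19595 regions, 397 to 507 (male H3K9me3), 276 to 427 (male H3K36me3), 447 to 600 (female H3K9me3), 209 to 266 (female H3K36me3), 498 to 598 (H3K9me3 interaction) and 258 to 330 calls (H3K36me3 interaction). Adjusted calls became 1 without male water 4 (male H3K36me3, 0 to 1) and 2 without male water 1 (H3K36me3 interaction, 0 to 2), and stayed at 0 in the other 4 comparisons. Of the named log2 changes, chr1:152243201-152246400 became -0.038 over input reads, chr5:6399001-6402000 became 0.17 over input reads and 0.039 at the q-value, and chr4:145860401-145864400 became -0.26 and -0.47. Beside these, 57 settings of named changes left the call and its direction in place and 4 lost the call (chr15:68639001-68643000 at -0.12 over input reads and -0.61 at the q-value, chr5:64943401-64946000 at -0.70 at the q-value, and chr6:95214601-95215800 at 0.13 over input reads). The causes were not tested. With listed H3K36me3 reads of 1.60 to 4.57 M, 6795 members had an island in every male library and 16043 in 8 of 11, and the part of depth in this was not tested.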
